A study of Mus musculus with 9 samples.

Results

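The genes examined were the 10 mouse genes that encode the main histone H3 lysine 9 (H3K9) methyltransferases and the proteins that read or use that mark in heterochromatin: Suv39h1, Suv39h2, Ehmt1, Ehmt2, Setdb1, Setdb2, Cbx1, Cbx3, Cbx5 and Trim28. They were chosen by name from a table of 55414 genes and each of the 10 names matched 1 gene. All 10 were measured in cultured round spermatids (RS), the haploid germ cells that follow meiosis in the testis, and all 10 passed the filter of at least 10 counts summed over the 9 libraries.

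RS cells of wild-type genotype were incubated for 24 hours with vehicle (0.15% DMSO), with 24 mM oxamate (Ox), or with 24 mM oxamate and 0.3 mM octyl-L2HG, and polyadenylated RNA was sequenced from 3 libraries per group. Every group contained 0.15% DMSO. Oxamate inhibits lactate dehydrogenase, and octyl-L2HG is a cell-permeable ester of L-2-hydroxyglutarate (L-2HG), a metabolite that lactate dehydrogenase C makes in mouse germ cells. Per the methods of the study, the cells were sorted by FACS from adult Stra8-Tom mice (C57Bl/6 background, over 10 weeks old), in which Stra8-iCre switches on a CAG-lox-stop-lox-tdTomato reporter in the germ line and fluorescence falls as the cells mature. The cells were incubated in triplicate, and whether the 3 libraries of a group came from separate animals is not given in the sources used here, so the p-values measure the spread between these libraries. Octyl-L2HG was given only together with oxamate, so its effect without the inhibitor was not measured.

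Methylation of H3K9 is the defining mark of constitutive heterochromatin and is laid down by several enzymes with separate tasks. SUV39H1 and SUV39H2 trimethylate H3K9 at pericentromeric repeats, EHMT1 (GLP) and EHMT2 (G9a) act as a heterodimer that mono- and dimethylates H3K9 in euchromatin, and SETDB1, recruited by the corepressor TRIM28 (KAP1), trimethylates H3K9 at transposable elements. The mark is bound by the chromodomain of the heterochromatin protein 1 (HP1) family, HP1β (Cbx1), HP1γ (Cbx3) and HP1α (Cbx5), which gather at the chromocenter, the single condensed body of pericentromeric DNA in the RS nucleus.

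Library totals ranged from 32339533 to 39888396 counts. Oxamate library 4 stood apart from the other libraries of its group: the chi-square per degree of freedom between libraries was 16.7 against library 5 and 20.7 against library 6, while libraries 5 and 6 gave 1.98 and pairs within the other groups gave 2.27 to 10.7. Several results are therefore also given without library 4. All 8 round spermatid markers were detected in every library, but their summed TMM-scaled count differed between groups, at 64486 to 67306 with vehicle, 59962 to 61324 with oxamate and 54805 to 55971 with octyl-L2HG added. Of those 8, the transition protein and protamine genes Tnp1, Tnp2, Prm1 and Prm2 were lower in all 3 comparisons. For octyl-L2HG with oxamate against vehicle, 6 of the 8 were lower and 1 was higher, Acrv1 (log2 fold change 0.25, adjusted p = 0.0103), while Spaca1 was at 0.06 (adjusted p = 0.600). The summed TMM-scaled count of 6 spermatocyte markers was 9009 to 11234, 8711 to 9616 and 10262 to 10547 in the same order, and that of 6 spermatogonium markers was 558 to 623, 711 to 724 and 647 to 708. Beside the germ cell lists, summed TMM-scaled counts over somatic lists were low. They reached at most 6.84 for 5 Sertoli cell markers, 40.6 for 5 Leydig cell markers and 50.9 for 4 myoid cell markers. For 4 macrophage markers the sum reached 163, of the order of the normalized counts of Cbx1 (116 to 168) and Suv39h1 (130 to 184). A part of other cells in those values was not tested. No marker was at 0 in all 9 libraries. In bulk RNA, a different share of cells and a different amount of transcript per cell cannot be told apart.

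The 10 genes spanned more than 3 orders of magnitude in level. Expressed as CPM per kilobase of exon, the vehicle mean was 126 ± 11.7 (SD, n = 3) for Trim28 and 98.8 ± 8.09 for Ehmt2. These were far above the third gene, Suv39h2, at 12.9 ± 0.439. Setdb1 at 6.64 ± 0.151 and Cbx3 at 6.62 ± 0.293 were indistinguishable, and Setdb2 at 5.08 ± 0.244 and Cbx5 at 3.75 ± 0.0205 followed, each without overlap with its neighbour. The lowest levels belonged to Cbx1 at 0.837 ± 0.0736 and Suv39h1 at 0.833 ± 0.0727, which overlapped, and to Ehmt1 at 0.0509 ± 0.0196. The order of the means was the same in all 3 groups. In the oxamate group the ranges of Trim28 and Ehmt2 overlapped, as did those of Cbx1 and Suv39h1. With octyl-L2HG added, no neighbours overlapped.

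**Figure D1:**
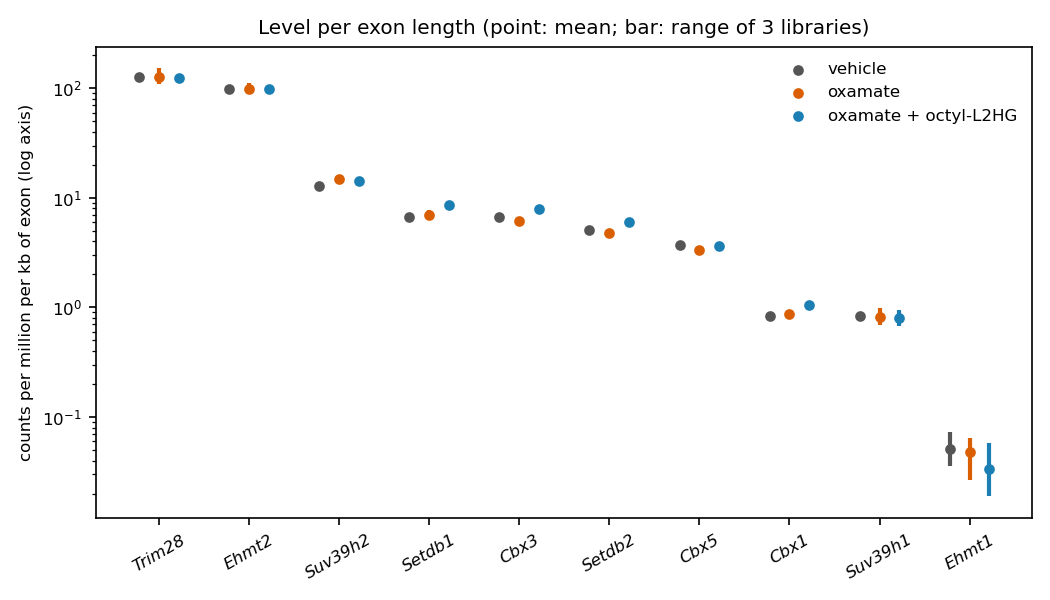
Level of each gene in CPM per kilobase of exon on a log axis, with the mean of 3 libraries as a point and their range as a bar, for the 3 treatment groups. Trim28 and Ehmt2 sit near 126 and 98.8 with vehicle, and Ehmt1 lies at the bottom at 0.0509.

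The gap in level per length between paralogs was wide for Suv39h2 and Suv39h1 and for Ehmt2 and Ehmt1, and narrow for Setdb1 and Setdb2. The level per length of Suv39h2, the paralog best known from adult testis, exceeded that of Suv39h1 15.5-fold with vehicle, 18.3-fold with oxamate and 18.2-fold with octyl-L2HG added. For the G9a/GLP pair, Ehmt2 exceeded Ehmt1 2028-fold, 2202-fold and 3327-fold. Ehmt1 had only 5 to 24 counts per library, so these last ratios carry a large counting error. The cause of these low counts was not tested. For the pair of SETDB enzymes, Setdb1 exceeded Setdb2 only 1.31-fold, 1.48-fold and 1.43-fold.

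The 3 comparisons between groups ask whether inhibition of lactate dehydrogenase, and addition of L-2HG on top of it, altered the transcripts of this machinery. With oxamate, 0 of the 10 genes passed an adjusted p of 0.05 in edgeR's quasi-likelihood test, while 5.19% of the 25128 genes tested did, 3.97% higher and 1.22% lower. DESeq2 also called 0. At an unadjusted p under 0.05 there were 2, Suv39h2 higher and Cbx5 lower, against 17.3% of all genes. When octyl-L2HG with oxamate was compared with oxamate alone, 3 of 10 genes were higher (Setdb1, Setdb2 and Cbx3) and 0 lower, while 11.2% of all genes were called, 3.18% higher and 8.06% lower. Against vehicle, the same treatment gave 4 of 10 higher (the same 3 and Cbx1) and 0 lower, while 18.0% of all genes were called, 7.48% higher and 10.6% lower. With total counts in place of TMM scaling, the shares of all genes higher and lower were 1.68% and 10.0% against oxamate and 4.90% and 13.4% against vehicle. Called genes are more frequent among well expressed ones. For 9 of the 10 the normalized counts averaged 100 or more, and among the 10715 genes at that level the share called was 9.67% for oxamate against vehicle, 8.08% higher, with 7.06% and 16.0% called higher in the 2 comparisons with octyl-L2HG. In the test of any difference among the 3 groups, 3 of 10 (Cbx3, Setdb1 and Setdb2) passed, against 19.8% of all genes, and 5 of 10 passed without oxamate library 4, against 29.7%. The comparisons share libraries: vehicle and octyl-L2HG libraries each enter 2 of them, as do the oxamate libraries.

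**Figure D2:**
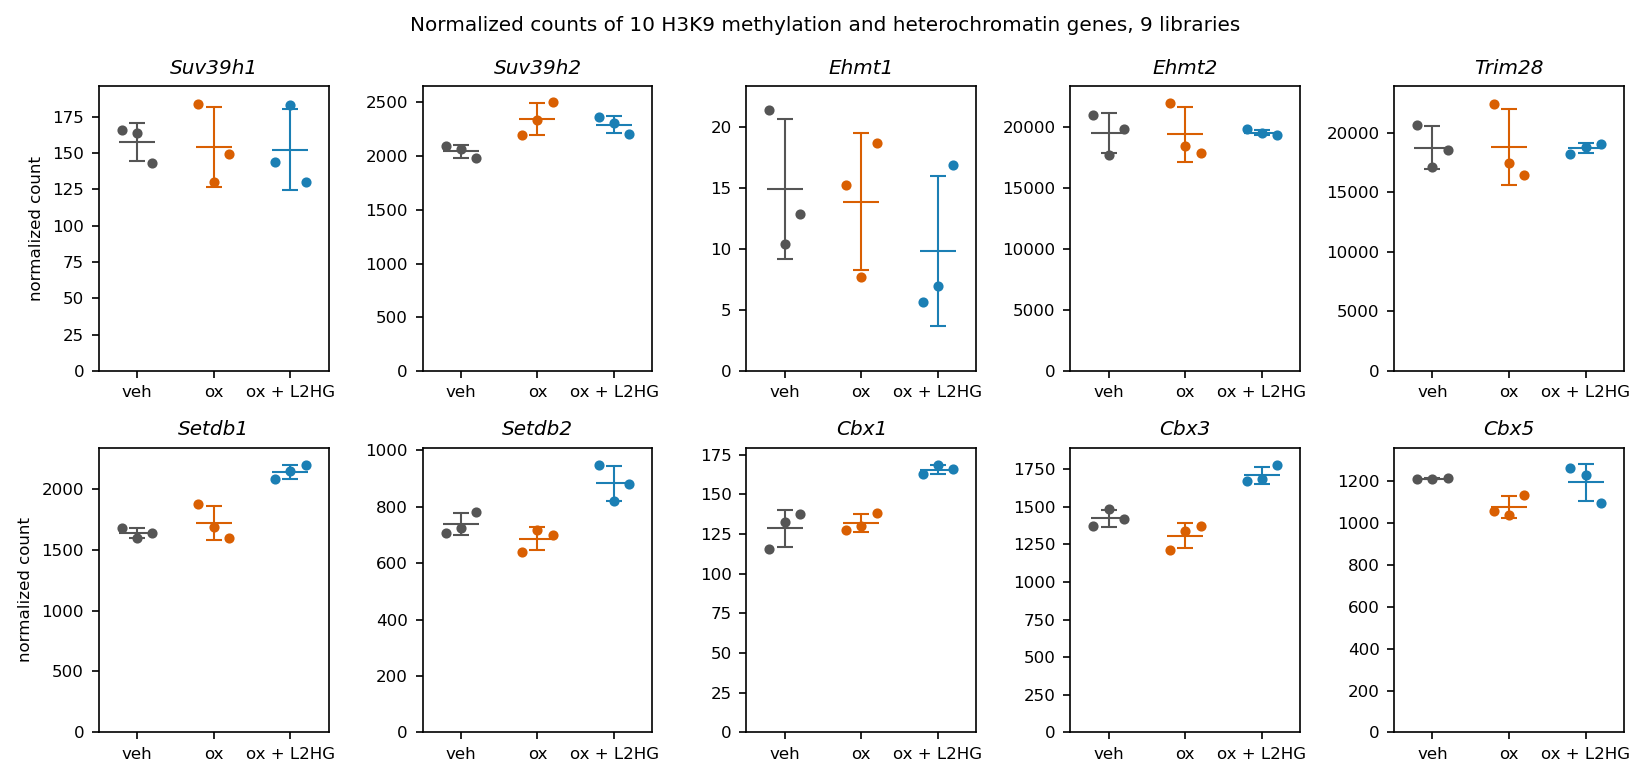
Normalized count of each gene in the 9 libraries, drawn from 0, with points for libraries and bars for the mean and SD of 3 libraries in vehicle (veh), oxamate (ox) and oxamate with octyl-L2HG (ox + L2HG). In Setdb1, Setdb2, Cbx1 and Cbx3 the 3 octyl-L2HG libraries lie above the other 6.

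Of the pericentromeric methyltransferases, Suv39h2 (ENSMUSG00000026646) had normalized counts of 2092, 2063 and 1980 with vehicle, 2198, 2339 and 2501 with oxamate, and 2365, 2305 and 2206 with octyl-L2HG added. The treated libraries all lay above the 3 vehicle libraries and overlapped each other. Oxamate differed from vehicle by a log2 fold change of 0.20 ± 0.07 (SE) with an adjusted p of 0.101, so the difference was not called. Without oxamate library 4 it was 0.24 with an adjusted p of 0.0106, and passed. The values for octyl-L2HG with oxamate were 0.14 (adjusted p = 0.167) against vehicle and -0.06 (adjusted p = 0.680) against oxamate.

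Suv39h1 (ENSMUSG00000039231), its X-linked paralog, had 166, 164 and 143 with vehicle, 184, 130 and 149 with oxamate, and 144, 183 and 130 with octyl-L2HG added. The groups overlapped throughout. All 3 log2 fold changes lay between -0.08 and -0.02, and the 95% confidence interval for oxamate against vehicle ran from -0.32 to 0.27.

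The G9a transcript Ehmt2 (ENSMUSG00000013787) had 20989, 17696 and 19800 normalized counts with vehicle, 21995, 18409 and 17831 with oxamate, and 19807, 19460 and 19339 with octyl-L2HG added. The highest value was that of oxamate library 4, and the groups overlapped. The log2 fold changes were close to 0, from -0.0184 to -0.000785, with 95% confidence intervals within -0.18 and 0.16, and the sign of the 2 comparisons with octyl-L2HG differed between scalings. Ehmt1 (ENSMUSG00000036893), which encodes the GLP partner, had raw counts of 24, 11 and 14, then 16, 8 and 17, then 5, 6 and 18. The log2 fold change for octyl-L2HG with oxamate against vehicle was -0.57 with a 95% confidence interval from -1.44 to 0.29, and it ran from -0.21 without vehicle library 1 to -1.28 without octyl-L2HG library 9. The change was not called (adjusted p = 0.395), and the interval was too wide to exclude one of -0.57.

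Trim28 (ENSMUSG00000005566), the corepressor that docks SETDB1 and HP1 on KRAB zinc finger proteins, had 20672, 17113 and 18544 normalized counts with vehicle, 22465, 17496 and 16494 with oxamate, and 18253, 18827 and 19084 with octyl-L2HG added. Like Ehmt2 it was highest in oxamate library 4, and the groups overlapped. Oxamate and vehicle differed by a log2 fold change of 0.01, with a 95% confidence interval from -0.18 to 0.20. Without library 4 it was -0.14 (adjusted p = 0.159), still not called, and its sign also differed between scalings.

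Setdb1 (ENSMUSG00000015697), which encodes the TRIM28-recruited H3K9 methyltransferase, had normalized counts of 1677, 1594 and 1637 with vehicle and 1874, 1685 and 1597 with oxamate, and these 2 groups overlapped. With octyl-L2HG added it reached 2080, 2148 and 2191, above all 6 other libraries. The log2 fold change was 0.37 ± 0.07 (SE; adjusted p = 0.00109) against vehicle, a rise of 28.9%. Against oxamate alone it was 0.29 ± 0.07 (adjusted p = 0.0124), a rise of 22.2%. The first call held in all 9 fits that left out 1 library. The second was lost in 4 of the 9, without oxamate library 5 or 6 or octyl-L2HG library 8 or 9, where the log2 fold change was 0.24 to 0.29 and the adjusted p at most 0.0680. Without oxamate library 4 it was 0.36 (adjusted p = 9.04e-05). In the GENCODE M21 annotation, 324 of 6853 exon bases of Setdb1 lie opposite exons of Cers2 and Gm37500, 440 of 4410 of Suv39h2 opposite Dclre1c and Gm13184, and 767 of 5270 of Suv39h1 opposite Gm14820; the strand setting of the counting is not given, so reads there cannot be told apart.

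Setdb2 (ENSMUSG00000071350), a related SET-domain protein that also carries a methyl-CpG-binding domain, had 707, 726 and 783 with vehicle, 641, 719 and 699 with oxamate, and 947, 822 and 882 with octyl-L2HG added. Vehicle and oxamate overlapped, and the 3 octyl-L2HG libraries were again the highest. Against oxamate the log2 fold change was 0.34 ± 0.08 (adjusted p = 0.00844), and this call was lost only without octyl-L2HG library 7, where it was 0.29 (adjusted p = 0.0668). Against vehicle it was 0.24 ± 0.08 (adjusted p = 0.0430), a call lost without vehicle library 1 or 2, oxamate library 5 or octyl-L2HG library 7 or 9, with adjusted p up to 0.196.

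Of the HP1 genes, Cbx3 (ENSMUSG00000029836), encoding HP1γ, had 1374, 1486 and 1419 with vehicle, 1216, 1340 and 1373 with oxamate, and 1671, 1685 and 1777 with octyl-L2HG added. The oxamate libraries lay below the vehicle libraries, although the nearest pair differed by about 1 normalized count, and the octyl-L2HG libraries lay above both. The change with oxamate was not called, at -0.12 ± 0.07 (adjusted p = 0.429). Octyl-L2HG with oxamate raised Cbx3 by 28.5% over oxamate (0.36 ± 0.07, adjusted p = 0.00230), a call kept in all 9 fits that left out 1 library, with log2 fold changes from 0.32 to 0.39. Over vehicle the rise was 18.3% (0.24 ± 0.07, adjusted p = 0.0216) and was lost without vehicle library 1 or 3 or octyl-L2HG library 8 or 9, with adjusted p up to 0.106. Reads of Cbx3 could be shared with its processed pseudogenes. Genes named as Cbx3 pseudogenes had at most 6 counts each over the 9 libraries, and at most 2 in any 1 library. The part of shared reads in the Cbx3 values was not tested.

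Cbx1 (ENSMUSG00000018666), encoding HP1β, was the least abundant of the family, with 116, 133 and 137 normalized counts with vehicle, 128, 130 and 138 with oxamate, and 163, 168 and 166 with octyl-L2HG added. Vehicle and oxamate overlapped, and the octyl-L2HG libraries lay above both. DESeq2 gave it an adjusted p of 0.0561 against vehicle, short of the threshold. The log2 fold change against vehicle was 0.35 ± 0.11 (adjusted p = 0.0348), which was lost without vehicle library 1 or 2 or any 1 of the octyl-L2HG libraries, with adjusted p up to 0.148. Against oxamate it was of like size, 0.30 ± 0.11, but missed the threshold (adjusted p = 0.0893). With the filter of edgeR's filterByExpr it passed, at 0.32 (adjusted p = 0.0486).

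Cbx5 (ENSMUSG00000009575), encoding HP1α, which binds pericentromeric H3K9me3, did not pass in any comparison. It had 1211, 1211 and 1215 with vehicle, 1056, 1039 and 1136 with oxamate, and 1261, 1229 and 1094 with octyl-L2HG added. All 3 oxamate libraries lay below the vehicle libraries, with a log2 fold change of -0.17 ± 0.07 and an adjusted p of 0.233. The octyl-L2HG libraries overlapped both groups, and their difference from vehicle was -0.04 with a 95% confidence interval from -0.20 to 0.11.

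**Figure D3:**
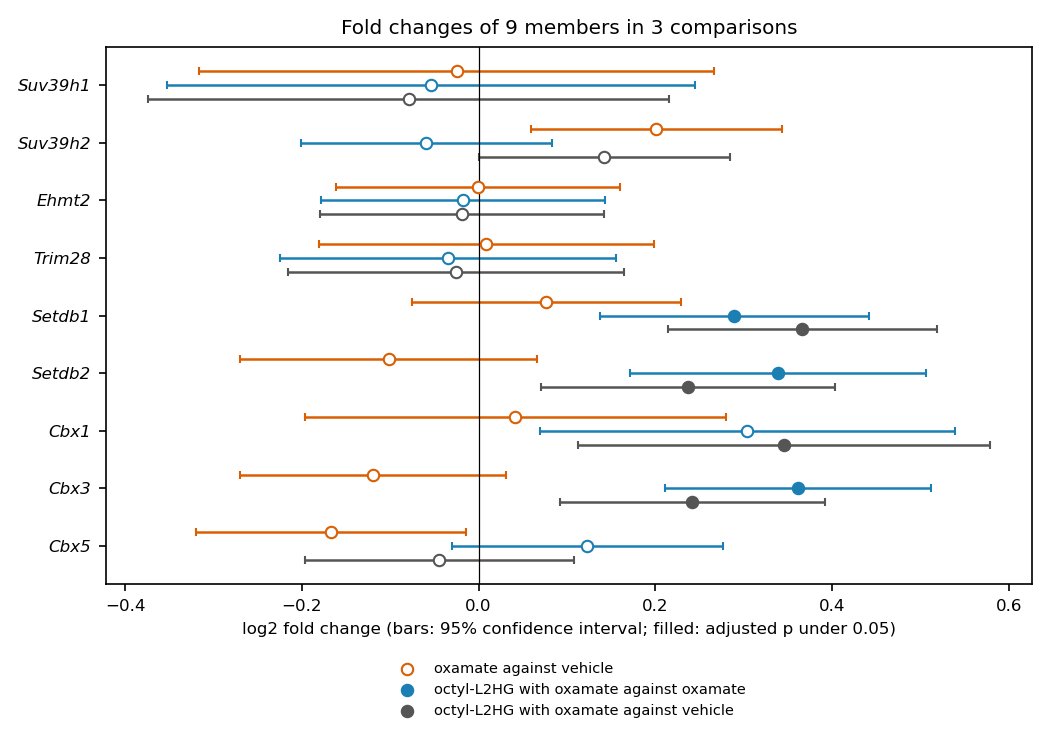
Log2 fold change of 9 of the genes in the 3 comparisons, with 95% confidence intervals as bars and filled points for an adjusted p under 0.05; Ehmt1 is left out for its low counts. The filled points are Setdb1, Setdb2 and Cbx3 in both comparisons with octyl-L2HG, and Cbx1 against vehicle.

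The proportions of the HP1 genes were also compared within libraries. On the per-length scale Cbx3 made up 59.1 ± 0.765% (SD, n = 3) of the summed HP1 transcript with vehicle, 59.2 ± 1.28% with oxamate and 62.5 ± 2.11% with octyl-L2HG added. Cbx5 made up 33.4 ± 0.947%, 32.4 ± 1.13% and 29.0 ± 2.14%, and Cbx1 7.46 ± 0.523%, 8.37 ± 0.155% and 8.48 ± 0.139%. On this scale HP1γ transcript was the main form in every group. The scale divides by annotated exon lengths of 5992 bases for Cbx3 and 9006 for Cbx5, and the isoforms present were not measured. Mean normalized counts of Cbx3 and Cbx5 were closer, at 1426 and 1212.5 with vehicle, 1309 and 1077 with oxamate, and 1711 and 1195 with octyl-L2HG added. The log2 ratio of Cbx3 to Cbx5 was 0.77, 0.88 and 0.81 with vehicle, 0.79, 0.95 and 0.86 with oxamate, and 0.99, 1.04 and 1.29 with octyl-L2HG added, so the last group did not overlap the others. The ratio of Cbx1 to Cbx5 separated all 3 groups, with means of -2.17, -1.95 and -1.77. The ratio of Cbx3 to Cbx1 was lower with oxamate than with vehicle, with means of 2.82 and 2.99 and no overlap, and overlapped in both comparisons with octyl-L2HG. A two-sided exact permutation test gave p = 0.1 for each of these non-overlapping pairs, which is the smallest p that 3 against 3 libraries allow, and 0.3 after Benjamini-Hochberg adjustment over the 18 ratio comparisons. For Suv39h2 to Suv39h1, Ehmt2 to Ehmt1 and Setdb1 to Setdb2, the groups overlapped in all 3 comparisons.

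**Figure D4:**
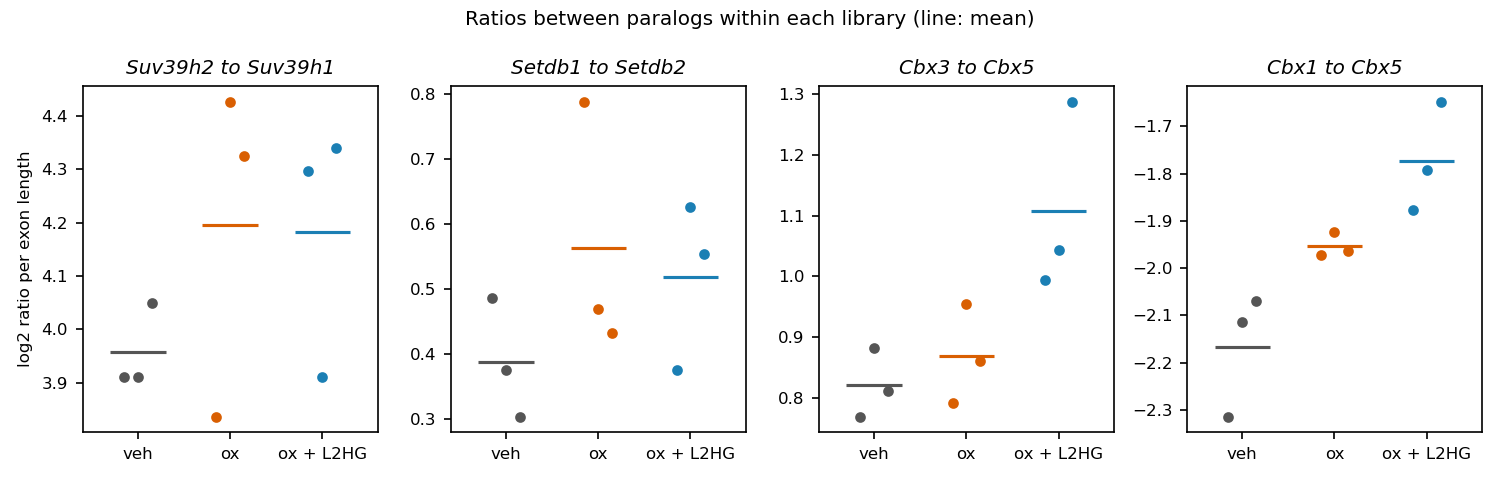
Log2 ratio of the levels per exon length of 2 paralogs in each library (points) with the group mean (line), for vehicle (veh), oxamate (ox) and oxamate with octyl-L2HG (ox + L2HG); the vertical axes do not start at 0. The Cbx1 to Cbx5 means are -2.17, -1.95 and -1.77, and the Setdb1 to Setdb2 groups overlap.

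Counting ranges without regard to the test, 3 of the 10 genes had non-overlapping groups for oxamate against vehicle (21.3% of all genes tested), 4 for octyl-L2HG with oxamate against oxamate (28.8%) and 5 for octyl-L2HG with oxamate against vehicle (36.5%). The median log2 fold change of the 10 genes was -0.01, 0.05 and 0.06 in these comparisons, beside -0.01, -0.04 and -0.05 for all genes tested and 0.01, 0.01 and 0.03 for the 10715 well expressed genes. Without oxamate library 4, the log2 fold changes against oxamate were 0.30 for Setdb2 (adjusted p = 0.00620) and 0.32 for Cbx3 (adjusted p = 0.000819), so both calls held. The calls against vehicle depended more on the processing: of the 4, only Setdb1 passed when total counts replaced TMM scaling, when the trend with exon length was removed, without vehicle library 1 or without octyl-L2HG library 9. The round spermatid marker sum given above fell with the same additions, and the part of this shift in the values of Setdb1, Setdb2, Cbx1 and Cbx3 was not tested. Among the spermatocyte markers, Sycp2 was higher with octyl-L2HG and oxamate than with oxamate (log2 fold change 0.37, adjusted p = 0.00774), the other 5 were not called, and a part of spermatocyte transcripts in these values was not tested either.

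The promoters of the 4 genes that rose are shown because these genes were called higher against vehicle, and that of Suv39h2 because it alone of the 10 holds a full cyclic AMP response element, the site through which CREM activates round spermatid genes. Each sequence is the 250 bases before the annotated start, 5′ to 3′ on the strand of the gene, from RefSeq on GRCm38.p6; the counts were made on another build, GRCm39. Capitals mark matches, on either strand, to TGACGTCA (cyclic AMP response element), CCAAT (the NF-Y site), TTTGGCGC (E2F site) and GCGCANGC (NRF1 core).
Setdb1, chr3:95357203-95357452, minus strand: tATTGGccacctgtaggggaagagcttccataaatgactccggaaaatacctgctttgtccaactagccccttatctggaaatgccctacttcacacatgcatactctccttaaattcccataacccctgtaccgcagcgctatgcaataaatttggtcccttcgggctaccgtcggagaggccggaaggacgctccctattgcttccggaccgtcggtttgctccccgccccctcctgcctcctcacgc
Setdb2, chr14:59440881-59441130, minus strand: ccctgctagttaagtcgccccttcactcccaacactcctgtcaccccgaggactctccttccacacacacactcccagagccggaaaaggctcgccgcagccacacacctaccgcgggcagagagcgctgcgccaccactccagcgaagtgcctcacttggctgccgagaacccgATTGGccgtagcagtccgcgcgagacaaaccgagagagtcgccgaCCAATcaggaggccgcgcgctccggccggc
Cbx3, first of 2 promoters, chr6:51470366-51470615, plus strand: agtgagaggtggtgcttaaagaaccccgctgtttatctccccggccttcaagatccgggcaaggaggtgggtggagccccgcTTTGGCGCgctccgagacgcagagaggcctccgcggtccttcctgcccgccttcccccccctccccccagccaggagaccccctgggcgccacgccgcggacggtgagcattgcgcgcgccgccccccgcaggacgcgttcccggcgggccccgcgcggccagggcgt
Cbx1, chr11:96788885-96789134, plus strand: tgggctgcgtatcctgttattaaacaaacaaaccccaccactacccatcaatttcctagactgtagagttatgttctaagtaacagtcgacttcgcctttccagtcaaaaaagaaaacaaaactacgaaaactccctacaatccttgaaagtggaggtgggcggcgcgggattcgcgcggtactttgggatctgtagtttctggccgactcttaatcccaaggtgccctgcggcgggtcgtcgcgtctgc
Suv39h2, chr2:3474987-3475236, minus strand: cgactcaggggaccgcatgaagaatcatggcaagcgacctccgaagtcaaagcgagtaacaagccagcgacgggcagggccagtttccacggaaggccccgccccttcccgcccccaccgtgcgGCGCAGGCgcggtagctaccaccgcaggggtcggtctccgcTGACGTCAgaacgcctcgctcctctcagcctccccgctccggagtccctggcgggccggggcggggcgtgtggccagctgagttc
No motif of the 4 searched was found in all 4 promoters of the genes that rose. A CCAAT match lay in the Setdb1 window, starting 249 bases before the start, and in the Setdb2 window at 75 and 30 bases, and 33.8% of 32851 mouse promoters hold one in the same window. Among genes that were not called, Cbx5 and Suv39h1 also held a CCAAT match, and Cbx5, Ehmt1 and Suv39h1 an NRF1 core. The E2F letters lay 168 bases before the first Cbx3 start and occur in 0.417% of promoters, while the Cbx1 window held none of the 4 motifs. In Suv39h2 the cyclic AMP response element lay at 85 bases (1.55% of promoters hold one) and an NRF1 core at 126 bases (8.30%). These matches describe the letters of the windows and do not show that a factor is bound.

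Other genes of H3K9 silencing were read as a list of 24 partners of these proteins. With oxamate, 2 of 24 were higher and 0 lower, beside 3.97% and 1.22% of all genes tested: Uhrf1, which links H3K9 methylation to maintenance of DNA methylation (log2 fold change 0.47 ± 0.08, adjusted p = 0.000776), and Pogz, an HP1-binding zinc finger protein (0.38 ± 0.08, adjusted p = 0.00360). Octyl-L2HG with oxamate against oxamate gave 2 of 24 higher and 3 lower, beside 3.18% and 8.06% of all genes. Prdm2, a PR-domain H3K9 methyltransferase, was higher (0.24 ± 0.06, adjusted p = 0.0147). Cdyl, a chromodomain corepressor, was lower (-0.32 ± 0.07, adjusted p = 0.00415), as was Pphln1, a subunit of the HUSH silencing complex (-0.24 ± 0.07, adjusted p = 0.0185). Against vehicle, 8 were higher and 2 lower, beside 7.48% and 10.6% of all genes. Of the 24, 20 were among the well expressed genes, of which 16.0% were higher. The median of the 24 log2 fold changes was 0.19 there, beside -0.05 for all genes and 0.03 for the well expressed ones. Prdm2 (0.41 ± 0.06, adjusted p = 6.91e-05) and the HUSH subunit Tasor (0.41 ± 0.08, adjusted p = 0.00109) rose, and Cdyl fell (-0.35 ± 0.07, adjusted p = 0.000792). Of 3 further genes, chosen after their values were seen, Atf7ip, which stabilizes SETDB1 in the nucleus, was higher against vehicle (0.22 ± 0.07, adjusted p = 0.0332), and Mphosph8, the HUSH chromodomain subunit, was also higher (0.33 ± 0.11, adjusted p = 0.0384), while Pphln1 was lower (-0.23, adjusted p = 0.0143). Without oxamate library 4, the partners called were 6 higher and 0 lower with oxamate, 5 and 3 against oxamate, and 10 and 2 against vehicle. Calls over all genes also rose without that library, to 6.42% higher and 2.86% lower with oxamate, 6.38% and 11.5% against oxamate, and 11.4% and 13.7% against vehicle. Uhrf1 was then at 0.36 (adjusted p = 8.21e-05) and Pogz at 0.39 (adjusted p = 0.000425) with oxamate. In the other direction, the 5 called against oxamate became 1 without oxamate library 5 or octyl-L2HG library 7 or 8 and 3 without octyl-L2HG library 9, where 5.64% to 7.06% of all genes were called, and the 10 called against vehicle became 4 or 5 without any 1 of the octyl-L2HG libraries, where 2970 to 3465 of all genes were called in place of 4534. They became 6, with 4 higher and 2 lower, when total counts replaced TMM scaling or when the trend with exon length was removed (6.28% and 9.83% of all genes).

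The opposing enzymes, 11 H3K9 demethylases, were counted in the same way; the study itself singled out demethylases of the JmjC class on these libraries, so their direction is not independent evidence. With oxamate 3 of 11 were higher (Kdm3a, Kdm4a and Jmjd1c, log2 fold changes 0.27, 0.35 and 0.36) and 0 lower, beside 3.97% and 1.22% of all genes. Without vehicle library 1 these 3 were not called, and without oxamate library 4 the count was again 3 higher and 0 lower. Octyl-L2HG with oxamate against oxamate gave 1 higher and 3 lower, beside 3.18% and 8.06% of all genes, again 1 and 3 without oxamate library 4, and 0 and 2 without oxamate library 5. The 3 lower were Kdm4b (-0.69 ± 0.12, adjusted p = 0.000699), Kdm4a (-0.42 ± 0.08, adjusted p = 0.00211) and Kdm3b (-0.63 ± 0.14, adjusted p = 0.00630). Of the genes higher with oxamate, Kdm3a (-0.02, adjusted p = 0.874) and Jmjd1c (0.05, adjusted p = 0.816) were not called at this step. Both were higher against vehicle, at 0.24 (adjusted p = 0.00681) and 0.41 (adjusted p = 0.00245). Against vehicle 4 were higher and 2 lower, beside 7.48% and 10.6% of all genes, with Kdm4b at -0.86 ± 0.12 (adjusted p = 2.29e-05), Kdm3b at -0.77 ± 0.14 (adjusted p = 0.000528) and Kdm1a, a flavin-dependent enzyme, at 0.34 ± 0.07 (adjusted p = 0.00202). The counts against vehicle were 4 and 3 without oxamate library 4, 4 and 4 without vehicle library 1, where 5.94% and 9.48% of all genes were called, and 3 and 3 with the length trend removed. Of the 11, 10 were among the 10715 well expressed genes, of which 866 were higher and 170 lower with oxamate. In the same set 756 were higher and 1361 lower against oxamate, and 1712 and 1454 against vehicle.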

How the data were processed

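RNA from RS cells (9 libraries, 3 per group) was sequenced as polyadenylated, stranded libraries. The authors trimmed reads with cutadapt 2.10, aligned them with TopHat2 2.1.1 to GRCm39 and deposited raw counts per gene from HTSeq 2.01; the strand setting is not given in the sources used here. They also deposited a normalized signal, the raw count divided by 1 DESeq2 1.36.0 size factor per library, which was used to print values. Groups were taken from the sample labels.

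Raw counts of 25128 genes with a sum of at least 10 were fitted in edgeR 4.0.16 (R 4.3.3; TMM scaling, robust quasi-likelihood F-test, group as the only term, all 9 libraries), with Benjamini-Hochberg adjustment over all genes and a threshold of 0.05; the test was checked on simulated counts. SE and 95% confidence intervals came from the same test. Marker sums are raw counts scaled by TMM, not the deposited values. Levels per length divided TMM-scaled CPM by the exon length in GENCODE M21, matched by gene ID for 99.6% of genes. Paralog ratios were compared by exact permutation (scipy 1.17.1). Alternatives were DESeq2 1.42.0, its size factors, total counts, other filters and thresholds, removal of a length trend, fits of 2 groups, and fits without each library. The 10 genes, 24 partners, 11 demethylases and marker lists were chosen with earlier results of these data known. All 10 were to be named in every comparison, with up to 3 called genes of smallest p per further list.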

Additional observations from a re-analysis of the deposited data

How the results depend on the processing

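No paired analysis was run. The labels number the libraries 1 to 3, 4 to 6 and 7 to 9, which does not show whether libraries were paired across the 3 groups. Of the 7 calls on the 10 genes in pairs of groups, 5 were lost without some single library, and those of Setdb1 against vehicle and Cbx3 against oxamate were not. The number of the 10 genes called was 0 for oxamate against vehicle, 2 at an unadjusted p under 0.05 and 0 to 1 without 1 library (1 without oxamate library 4). It was 3 for octyl-L2HG with oxamate against oxamate, 2 to 3 without 1 library, and stayed within 1.5 times that under every other setting. Against vehicle it was 4, and 1 at an adjusted p under 0.01, with total counts or with the length trend removed, and 1 to 4 without 1 library. For any difference it was 3, 5 at an unadjusted p and 2 to 5 without 1 library.

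All genes called for oxamate against vehicle numbered 1303 (602 at an adjusted p under 0.01, 4348 at an unadjusted p, 745 from the 2 groups alone, 659 to 2288 without 1 library, the highest without oxamate library 4 and the lowest without vehicle library 2). For octyl-L2HG with oxamate against oxamate they numbered 2823 (1261, 5934, and 1396 to 4415 without 1 library), against vehicle 4534 (2607, 7527, and 2970 to 6194), and for any difference 4974 (2774, 7910, and 3154 to 7328).

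Sign changes fell on log2 fold changes that were not called, and the cause was not tested. For oxamate against vehicle, Ehmt2 was 0.00374 from the 2 groups alone, Cbx1 -0.000798 with the length trend removed, and Trim28 -0.0118 with total counts and -0.0346 with the length trend removed. Without 1 library, Suv39h1 ranged from -0.18 to 0.0892, Ehmt1 from -0.37 to 0.24, Ehmt2 from -0.11 to 0.0617, Cbx1 from -0.0306 to 0.0830 and Trim28 from -0.14 to 0.10. For octyl-L2HG with oxamate against oxamate, Ehmt2 was 0.00911 with DESeq2, 0.00910 with its size factors, 0.0271 with no filter, 0.00206 with filterByExpr and 0.00682 from the 2 groups alone, and Trim28 was 0.0103 with no filter. Without 1 library, Suv39h1 ranged from -0.20 to 0.10, Ehmt2 from -0.0796 to 0.0879 and Trim28 from -0.13 to 0.12. Against vehicle, Ehmt2 was 0.00295 with DESeq2, 0.00294 with its size factors and 0.0267 with no filter, and Cbx5 was 0.000940 and Trim28 0.0197 with no filter. Without 1 library, Suv39h1 ranged from -0.23 to 0.0251, Ehmt2 from -0.0783 to 0.0391, Cbx5 from -0.0810 to 0.0120 and Trim28 from -0.0829 to 0.0503.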
